A study of Mus musculus with 6 samples.

Results

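The 10 genes described here were taken by name from the table of gene counts: the AP-1 transcription factor genes Fos, Fosb, Jun, Junb and Atf3, the immediate early genes Egr1 and Ier2, the phosphatase gene Dusp1, and the inducible heat shock genes Hspa1a and Hspa1b. All 10 were found among 49671 gene rows and all 10 passed the filter on low counts, which left 18040 genes for testing. The libraries came from whole testes of C57BL/6J mice aged 12 days post-partum, 3 of wild-type Ankrd31+/+ and 3 of knockout Ankrd31-/- genotype, with no treatment named in the labels. Ankrd31 encodes an ankyrin-repeat protein of the machinery that makes meiotic DNA breaks. The labels give neither the deleted part of the gene nor whether replicate numbers mark litters or days, and p-values measure the spread between these libraries only.

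Immediate early genes are transcribed within minutes of a stimulus, without new protein synthesis, and their short-lived transcripts fall again soon after. Growth factor and stress signals reach them through MAP kinases and the factors SRF, ELK and CREB. The products of Fos, Jun and their relatives then bind DNA as AP-1 dimers. Heat shock genes answer to unfolded protein through the factor HSF1, and Hspa1a and Hspa1b both encode inducible chaperones of the HSP70 family. Both groups are known to be induced when tissue is removed, warmed or dissociated, and are therefore often read as a record of handling. In the testis, luteinizing hormone acting through cAMP also induces several immediate early genes in Leydig cells.

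The promoters of 4 of the genes are shown because Fos is the prototype of the group, Junb had the widest spread relative to genes of like level, and Hspa1a and Hspa1b are near copies whose reads are hard to separate. Each line gives the 250 bases before the RefSeq start (GRCm38.p6), 5′ to 3′ on the strand of the gene. Fos lies at chr12:85473640-85473889 on the plus strand, and Junb at chr8:84978749-84978998, Hspa1a at chr17:34972157-34972406 and Hspa1b at chr17:34959239-34959488 on the minus strand. Capitals mark the core TGACG of the cAMP response element and the TATAAA box in Fos, TGACG and the CCAAT box in Junb, and the heat shock element GAANNTTC and the CCAAT box, both read on either strand, in the Hspa1 genes.
Fos: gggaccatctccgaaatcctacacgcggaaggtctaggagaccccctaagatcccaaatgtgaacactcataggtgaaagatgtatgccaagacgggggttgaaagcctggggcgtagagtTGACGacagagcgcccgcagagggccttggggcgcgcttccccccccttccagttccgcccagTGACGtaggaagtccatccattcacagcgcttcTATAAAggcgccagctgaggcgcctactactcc
Junb: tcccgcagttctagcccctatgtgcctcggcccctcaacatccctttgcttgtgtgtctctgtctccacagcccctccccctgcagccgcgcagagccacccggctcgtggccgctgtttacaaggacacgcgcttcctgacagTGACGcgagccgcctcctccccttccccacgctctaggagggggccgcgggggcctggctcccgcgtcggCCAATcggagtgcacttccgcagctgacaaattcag
Hspa1a: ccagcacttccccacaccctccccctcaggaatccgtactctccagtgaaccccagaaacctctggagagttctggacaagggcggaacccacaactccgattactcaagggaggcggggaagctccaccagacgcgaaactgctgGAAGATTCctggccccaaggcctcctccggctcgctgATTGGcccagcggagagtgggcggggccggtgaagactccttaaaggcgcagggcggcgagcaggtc
Hspa1b: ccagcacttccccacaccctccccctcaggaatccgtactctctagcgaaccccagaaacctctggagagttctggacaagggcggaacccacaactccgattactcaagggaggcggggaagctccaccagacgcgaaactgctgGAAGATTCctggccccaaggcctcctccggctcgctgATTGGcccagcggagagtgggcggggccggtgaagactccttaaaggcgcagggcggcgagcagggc

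Promoter sequences were matched for 8 of the 10 genes, namely all but Egr1 and Ier2. On either strand, TGACG was present in 5 of the 8, those of Atf3, Fosb, Junb, Fos and Dusp1, against 17.8% of 32851 promoter windows of the same length. The full element TGACGTCA was found in Dusp1 alone of the 8 (1.5% of all windows); every match to it also holds TGACG. GAANNTTC was found in Jun, Hspa1a and Hspa1b (6.7% of all windows), CCAAT in Jun, Junb, Hspa1a and Hspa1b (33.8%) and TATAAA in Fos (12.4%). The CArG box bound by SRF had no match in these 8 windows (1.5% of all). Nor had the heat shock element in its other phase, TTCNNGAA (7.2% of all), or the AP-1 site TGANTCA (6.7%). Sites outside these 250 bases, or spelled otherwise, were not searched for, so their absence from the promoters cannot be read from this. The GC box GGGCGG was found in 7 of the 8, all but Junb (32.7% of all). The Hspa1a and Hspa1b windows differed at 3 of 250 bases.

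The libraries held 21014060 to 22706296 counts. Ankrd31, the targeted gene, stood at 52.3 to 84.9 CPM (gene counts relative to the TMM-adjusted library total) in wild type and 33.2 to 40.8 CPM in knockout, and exons outside the deleted part can contribute to it. Its log2 fold change was -0.84 ± 0.17 (SE; edgeR adjusted p = 1), and it was called with the replicate block (-0.82 ± 0.074, edgeR adjusted p = 0.00505). Markers of the tissue were present in all libraries: summed CPM ran from 6139 to 7094 for 10 Sertoli cell genes, from 1213 to 1268 for 10 spermatogonial genes and from 1180 to 2233 for 9 spermatocyte genes. Over all libraries the summed CPM was 2761 to 3798 for stromal genes, 942.5 to 1060 for peritubular myoid genes, 251 to 331.1 for epididymal or rete testis genes, 59.27 to 95.83 for erythroid genes and 36.63 to 77.07 for muscle or fat genes. The most abundant markers were Cdh5 and Kdr (endothelial), Defb19 and Epcam (epididymal or rete testis), Hbb-bs and Hba-a1 (erythroid), Nr5a1 and Hsd3b1 (Leydig), Mrc1 and Lyz2 (macrophage), Actn3 and Plin1 (muscle or fat), Acta2 and Myh11 (peritubular myoid), Clu and Cldn11 (Sertoli), Sycp1 and Smc1b (spermatocyte), Dmrt1 and Ddx4 (spermatogonial), Col3a1 and Col1a2 (stromal), and 1 listed epididymal or rete testis gene, Adam28, was at 0 in all libraries. Defb19 and Epcam made up most of the epididymal or rete testis sum, and 5 other genes of that list stood apart in wild-type replicate 3. There Crisp1 was at 29.7 CPM (0 to 2.88 in the other 5 libraries), Cdh16 at 11.5 (0 to 0.946), Krt19 at 7.62 (0.308 to 1.80), Krt18 at 6.30 (0.181 to 1.23) and Krt8 at 5.87 (0.0906 to 0.676). Without that library 0 of the 10 genes were called and 0 of all 18356 tested genes, as with it (0 of 18040). With no gene called in either fit, these counts cannot show whether that library bears on the 10 genes. The log2 fold change of Fosb was 0.45 ± 0.40 without it and 0.24 ± 0.35 with all libraries (SE). That of Atf3 was 0.29 ± 0.17 against 0.16 ± 0.16, and that of Hspa1a -0.067 ± 0.12 against -0.14 ± 0.11 (SE). None of the 10 had a lower value without that library, and its part in these values was not tested. The spermatocyte sum was highest in replicate 1 of both genotypes (2233 in wild type and 2221 in knockout). In whole tissue, fewer cells of a type and less RNA per cell cannot be told apart.

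No gene of the group passed the test for a genotype difference. In edgeR's quasi-likelihood test with Benjamini-Hochberg adjustment over all 18040 genes, 0 of 10 were called, where 0% of all tested genes were (0 genes; 374, or 2.07%, at an unadjusted p under 0.05, and 0 of the 10). With the replicate number as a block, edgeR called 8 genes (0.0443%) and 0 of the 10, and 1 of the 10, Junb, had an unadjusted p under 0.05, where 7.48% of all genes did. DESeq2 and limma voom also called 0 of the 10. The knockout and wild-type ranges of CPM overlapped for all 10, where 6.59% of tested genes did not overlap (3.5% with knockout below wild type). The median log2 fold change, knockout over wild type, was 0.018 over the 10 genes and -0.0048 over all tested genes. Of the 10, 6 were higher and 4 lower, where 47.77% of all tested genes were higher.

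**Figure D1:**
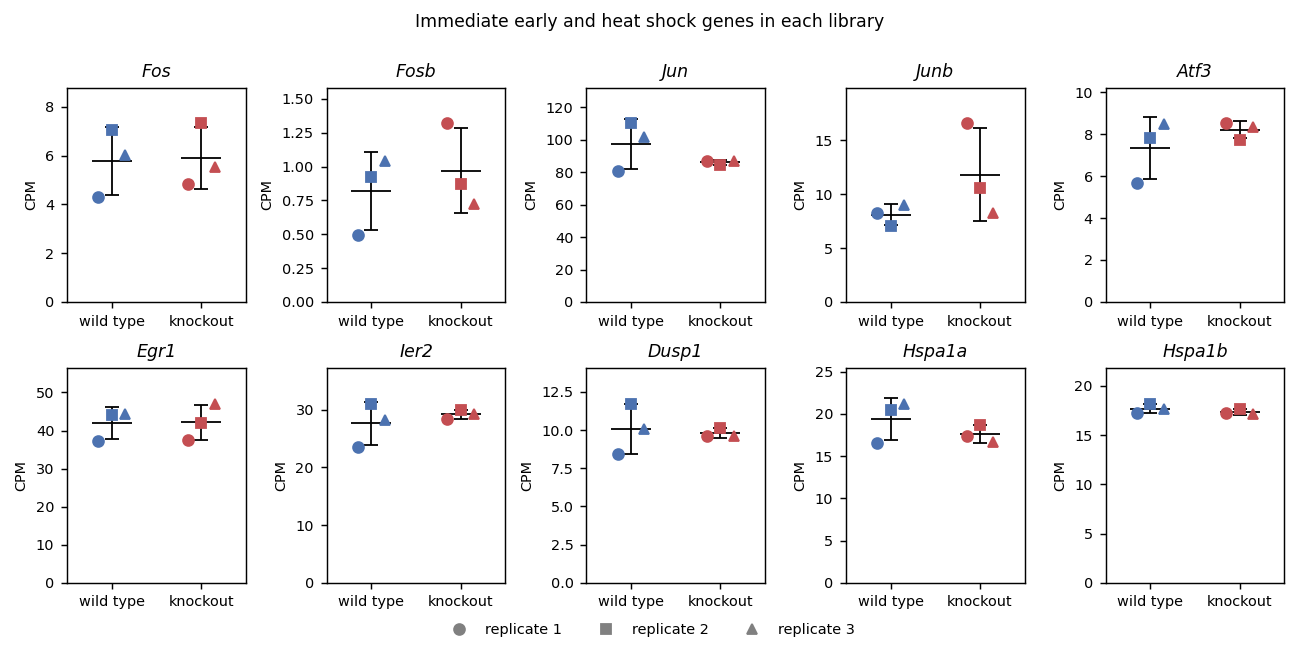
CPM of each gene in each library, with circles, squares and triangles for replicates 1, 2 and 3 (blue wild type, red knockout), and horizontal bars with whiskers for the mean and SD of 3 libraries. Wild-type replicate 1 is the lowest library for 8 of the 10 genes, and Junb reaches 16.6 CPM in knockout replicate 1 against 7.04 to 8.95 CPM in wild type.

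Levels between genes were compared per length, as CPM per kilobase of the deposited exon length, averaged over all 6 libraries. Jun, the main partner in AP-1 dimers, was highest at 28.8, and its libraries (25.3 to 34.6) lay above all those of Ier2, a small nuclear regulator, at 18.6 (15.5 to 20.3). Egr1, a zinc finger transcription factor, followed at 9.37 (8.28 to 10.5), apart from the genes on either side of it. Hspa1b (6.25) and Hspa1a (6.23) were not separated from each other. They share much of their sequence, and how reads matching both were counted is not given, so their place in this order is uncertain. Hspa1a (5.57 to 7.13), Junb (3.06 to 7.20), Dusp1 (3.12 to 4.34), Atf3 (2.63 to 3.95) and Fos (1.83 to 3.12) followed at 6.23, 4.32, 3.68, 3.60 and 2.48 CPM per kilobase, each overlapping the next in the range of its 6 libraries. Fosb was lowest at 0.144 (0.0798 to 0.212), below every library of Fos. In the averages over the 6 libraries, Jun thus stood more than an order of magnitude above its dimer partner Fos on this scale. The order was the same on counts scaled by DESeq2 size factors per kilobase.

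Fos (ENSMUSG00000021250, mm10 chromosome 12, 85473890 to 85477273, plus strand) encodes the AP-1 subunit that must pair with a JUN protein. It stood at 4.30, 7.04 and 6.01 CPM in wild-type replicates 1, 2 and 3 and at 4.83, 7.33 and 5.54 CPM in the knockout replicates. Replicate 1 was lowest and replicate 2 highest in both genotypes, and the means, 5.78 ± 1.38 and 5.90 ± 1.29 CPM (SD, n = 3 each), lay within that spread. The log2 fold change was 0.028 ± 0.21 (SE), with a 95% interval of -0.45 to 0.50.

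Fosb (ENSMUSG00000003545, chromosome 7, 19302696 to 19310051, minus strand), a close relative of Fos, rested on 11, 21 and 22 reads in wild type and 29, 19 and 16 in knockout. Its levels were 0.498, 0.924 and 1.04 CPM in wild type and 1.32, 0.870 and 0.721 CPM in knockout. Knockout replicate 1 was highest and wild-type replicate 1 lowest. The log2 fold change of 0.24 ± 0.35 (SE) had an interval of -0.55 to 1.03, and its variance between libraries of a genotype was 2.20 times what counting reads alone gives.

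Jun (ENSMUSG00000052684, chromosome 4, 95049034 to 95052222, minus strand) had 80.6, 110.2 and 101.8 CPM in wild type and 87.2, 84.3 and 86.7 CPM in knockout. The knockout libraries were close together and fell inside the wild-type range. Wild type averaged 97.5 ± 15.3 CPM and knockout 86.1 ± 1.57 CPM (SD, n = 3 each), the log2 fold change was -0.18 ± 0.10 (SE), and edgeR gave an unadjusted p of 0.113 and an adjusted p of 1. Without wild-type replicate 1 the log2 fold change was -0.30 ± 0.070 (edgeR unadjusted p = 0.00135, adjusted p = 0.343), and without wild-type replicate 2 it was -0.082. In the edgeR fit without wild-type replicate 1, 1531 of 18341 genes had an unadjusted p under 0.05, against 374 of 18040 with all libraries. The opposite-strand gene Junos overlaps 689 bases of the Jun span and had 9 to 24 reads, against 1780 to 2506 for Jun.

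Junb (ENSMUSG00000052837, chromosome 8, 84974484 to 84978718, minus strand), whose product often counters that of Jun, had the largest fitted difference of the group. It stood at 8.29, 7.04 and 8.95 CPM in wild-type replicates 1, 2 and 3, and at 16.6, 10.6 and 8.25 CPM in the knockout replicates. Knockout replicates 1 and 2 lay above all wild-type libraries and knockout replicate 3 among them. Wild type averaged 8.09 ± 0.971 CPM and knockout 11.8 ± 4.30 CPM (SD, n = 3 each), and the log2 fold change was 0.54 ± 0.24 (SE) with an interval of -0.0033 to 1.09 (edgeR unadjusted p = 0.0511, adjusted p = 1). With the replicate block it was 0.51 ± 0.21 (edgeR unadjusted p = 0.0445, adjusted p = 0.659). An exact permutation test on log2 CPM gave p = 0.3, two-sided, where 0.1 is the smallest p that 3 against 3 libraries allow. The value fell to 0.22 without knockout replicate 1.

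Beside the Junb values, other signals can be set. The opposite-strand gene Prdx2 overlaps 351 bases at the end of Junb and had 4335, 4909 and 4041 reads in wild type and 4181, 4612 and 4167 in knockout, against 160 to 364 for Junb. The library kit was directional, but the strand setting of the counting is not given in the sources used here, so reads of the overlap may be shared. In knockout replicate 1, the highest Junb library, Prdx2 was at 190.4 CPM, just under its wild-type range of 191.3 to 215.9 CPM. Summed CPM of 12 macrophage genes ran from 149.9 to 215.5 in wild type and 180.9 to 215.7 in knockout, with knockout replicate 1 at 198.5. The sum of 10 endothelial genes ran from 170.7 to 209.1 in wild type and 159.8 to 181.9 in knockout, where knockout replicate 1 was lowest. No marker of either list was at 0 in all libraries, and their part in the Junb values was not tested.

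Atf3 (ENSMUSG00000026628, chromosome 1, 191170296 to 191218039, minus strand), a stress-induced factor of the ATF and CREB family, had 5.66, 7.83 and 8.47 CPM in wild type and 8.52, 7.74 and 8.34 CPM in knockout. Wild-type replicate 1 was the low library, and the other 5 lay within 1 CPM of each other. The log2 fold change was 0.16 ± 0.16 (SE), and 0.0089 without wild-type replicate 1.

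Egr1 (ENSMUSG00000038418, chromosome 18, 34859823 to 34864984, plus strand) had 37.1, 44.2 and 44.5 CPM in wild type and 37.6, 41.9 and 47.0 CPM in knockout. As for Fos, replicate 1 was the lowest library of each genotype. The means, 41.9 ± 4.15 and 42.1 ± 4.69 CPM (SD, n = 3 each), differed by less than the spread, and the log2 fold change was 0.0078 ± 0.10 (SE), with an interval of -0.22 to 0.23.

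Ier2 (ENSMUSG00000053560, chromosome 8, 84661331 to 84662852, minus strand, 311.6 kb from Junb) had 23.6, 31.0 and 28.3 CPM in wild type and 28.4, 29.9 and 29.2 CPM in knockout. Again the knockout libraries fell within the wild-type range. Its log2 fold change was 0.079 ± 0.10 (SE).

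Dusp1 (ENSMUSG00000024190, chromosome 17, 26505590 to 26508519, minus strand) encodes a phosphatase that switches off MAP kinases and so closes the loop on the response. It had 8.42, 11.7 and 10.04 CPM in wild type and 9.61, 10.2 and 9.60 CPM in knockout. Its log2 fold change was -0.039 ± 0.14 (SE), and its order of wild-type libraries, lowest in replicate 1 and highest in replicate 2, was that of Fos, Jun and Ier2.

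Hspa1a (ENSMUSG00000091971, chromosome 17, 34969190 to 34972156, minus strand) and Hspa1b (ENSMUSG00000090877, chromosome 17, 34956436 to 34959238, minus strand) lie 9951 bases apart. Of all 75-base windows in the annotated Hspa1a transcripts, 52.7% also occur in Hspa1b, and 55.8% the other way round. How reads with several matches were counted is not given, so the split between the 2 genes and the level of each are uncertain. The opposite-strand gene Gm20481 overlaps 2225 bases of the Hspa1a span and had 6 to 13 reads, against 365 to 466 for Hspa1a. Hspa1a had 16.5, 20.5 and 21.2 CPM in wild type and 17.4, 18.7 and 16.6 CPM in knockout, with a log2 fold change of -0.14 ± 0.11 (SE). Hspa1b had 17.3, 18.2 and 17.7 CPM in wild type and 17.2, 17.7 and 17.1 CPM in knockout, with -0.029 ± 0.084 (SE). Hspa1b was the 1 gene of the 10 that was lower in 3 of 3 same-number pairs, where 14.7% of all genes were, and its ratios were -0.0032, -0.039 and -0.044. Summed into 1 feature, the pair stood at 33.8, 38.7 and 38.8 CPM in wild type and 34.6, 36.4 and 33.7 CPM in knockout, with -0.087 ± 0.081 (SE, edgeR adjusted p = 1). The intervals of -0.39 to 0.11 for Hspa1a and -0.22 to 0.16 for Hspa1b give the range of differences these libraries leave room for.

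**Figure D2:**
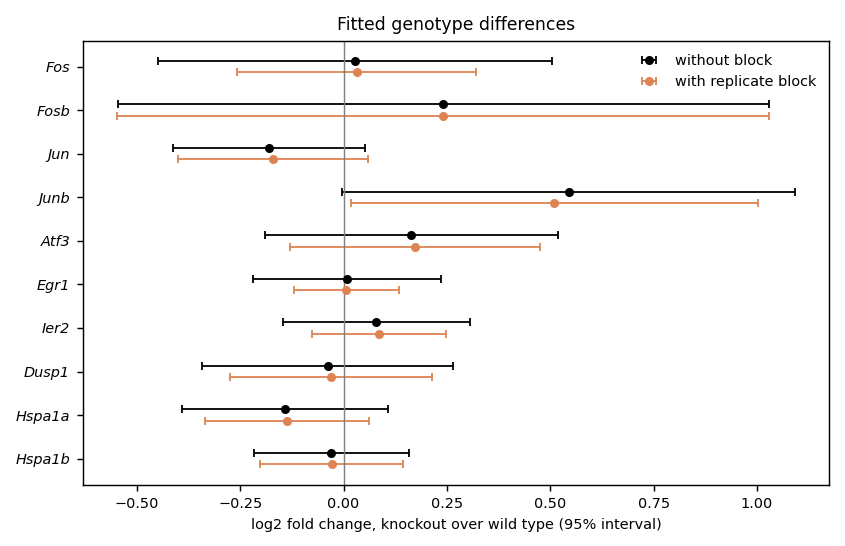
Log2 fold change of each gene, knockout over wild type, with its 95% interval, fitted without a block (black) and with the replicate number as a block (orange). The intervals include 0 for all 10 genes without the block, and for 9 with it; that of Junb then runs from 0.017 to 1.003.

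One library stood apart in much of the group. Wild-type replicate 1 was the lowest of the 6 for 8 of the 10 genes (all but Junb and Hspa1b), where it was lowest for 16.5% of tested genes. The mean standardised log2 CPM of the 8 immediate early genes was -1.39 in wild-type replicate 1 and between 0.02 and 0.62 in the other 5 libraries. For the heat shock pair it was 1.32 and 0.85 in wild-type replicates 2 and 3, -0.84 in wild-type replicate 1, and -0.65, 0.29 and -0.98 in knockout replicates 1, 2 and 3. These counts were chosen after the values were seen, and the genes are not independent of each other. Some other lists also had wild-type replicate 1 at an end. It was lowest in summed CPM of the further immediate early genes (1753, against 1887 to 1953 in the other 5 libraries) and of AP-1 partners (737.6, against 754.1 to 810.0). For the other HSP70 genes it was highest (3897, against 3022 to 3821). It lay within the range of the other libraries for heat shock chaperones (5423, against 5270 to 5619). The same held for the unfolded protein response (5505, against 4065 to 5550), kinase feedback genes (413.9, against 398.5 to 458.6) and upstream genes (1996, against 1974 to 2048). Wild-type replicate 1 was also lowest for stromal genes (2761, against 2888 to 3798) and peritubular myoid genes (942.5, against 1016 to 1060), and highest for spermatocyte genes (2233, against 1180 to 2221). The part of these cell types in the values of the group was not tested.

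Same-number pairs of libraries went in different directions. In pair 1 the knockout library was higher for 9 of the 10 genes (49.5% of all tested genes), with a median log2 ratio of 0.18. In pair 2 it was lower for 8 of the 10 (50.4% of all genes; median -0.063), with Fos and Junb the exceptions. In pair 3 it was lower for 8 of the 10 (50.6%, median -0.090), with Egr1 and Ier2 the exceptions. The count in pair 1 is not separate from the low wild-type replicate 1. That library was the lowest for 8 of the 10 genes, which fixes their sign in pair 1. No gene of the 10 was higher in 3 of 3 pairs, where 13.9% of all genes were. Over all genes the median log2 ratio was -0.0017, -0.0015 and -0.0025 in pairs 1, 2 and 3.

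**Figure D3:**
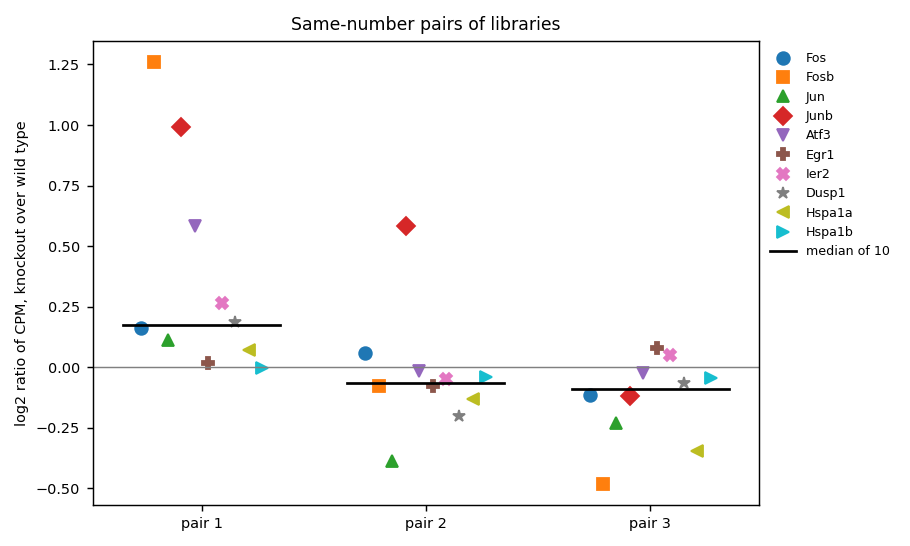
Log2 ratio of CPM, knockout over wild type, for each gene in the 3 same-number pairs (prior count of 2), with the median of the 10 as a black bar. Pair 1 holds 9 ratios above 0, and pairs 2 and 3 hold 8 below 0 each; Fosb and Junb reach 1.26 and 0.99 in pair 1.

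Relative to genes of like level, most of the group had a wider than median spread within genotypes. The SD of log2 CPM within a genotype was 0.38 for Junb, at the 93.3rd percentile of tested genes in the same level class (10 classes of equal size by mean level). It was 0.33 for Fos and 0.17 for Jun (both at the 90.5th percentile) and 0.15 for Egr1 (80.8th). Ier2, Atf3 and Fosb lay at the 70.4th, 69.6th and 63.4th percentiles, Hspa1a at the 59.8th and Dusp1 at the 47.4th. Hspa1b was at the other end, with an SD of 0.031 at the 0.388th percentile. Its variance between libraries of a genotype was 0.188 of what counting reads alone gives (4 degrees of freedom), a value below 1 being found in 14.8% of genes of that level. The ratio was 4.26 for Hspa1a, 3.02 for the sum of both, 18.6 for Junb and 26.9 for Jun, against a median of 3.10 over all tested genes. That median is not matched for level. Within the same level class the ratio lay at the 0.444th percentile for Hspa1b, the 67.55th for Hspa1a, the 96.9th for Junb and the 88.0th for Jun.

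**Figure D4:**
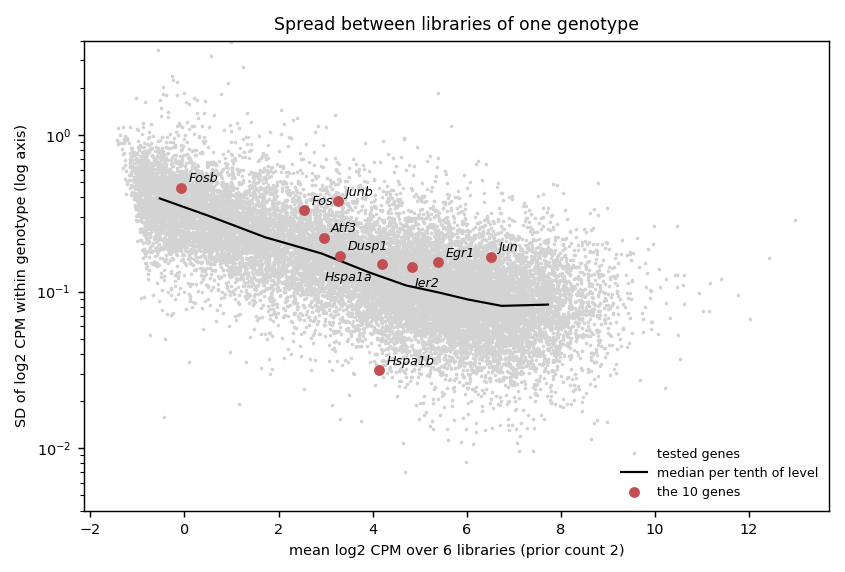
SD of log2 CPM within a genotype (log axis) against mean log2 CPM over the 6 libraries for 18040 tested genes (grey), the 10 genes (red), and the median in each of 10 level classes (black line). Junb, Fos, Jun and Egr1 lie above the line and Hspa1b far below it.

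The other genes of these pathways gave no calls either. Of 14 tested AP-1 partners and related factors, 10 were higher and 4 lower in knockout (median log2 fold change 0.032), and 0 were called with or without the block. Of 41 further immediate early genes 23 were higher and 18 lower (0.030), of 15 MAP kinase phosphatases and feedback inhibitors 5 and 10 (-0.028), and of 21 heat shock chaperones 8 and 13 (-0.019). Of 12 other HSP70 genes 8 were higher and 4 lower (0.026), and of 24 upstream kinases and factors 11 and 13 (-0.0015). Of 15 genes of the unfolded protein response 13 were higher and 2 lower (0.053), where 47.77% of all tested genes were higher. The median log2 ratios of that last list were 0.054, 0.17 and -0.072 in pairs 1, 2 and 3. None of these lists had a called gene in edgeR with or without the block. The heat shock regulators Hsf1 and Hsf2 were at 47.4 ± 2.94 and 61.4 ± 3.99 CPM in wild type and 47.4 ± 1.99 and 61.4 ± 1.31 CPM in knockout (SD, n = 3 each). The HSF1-dependent co-chaperone gene Dnajb1 was at 83.7 ± 3.98 and 82.5 ± 2.02 CPM (SD, n = 3 each).

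Within the lists, the smallest unadjusted p-values belonged to genes that did not pass. Cebpd, a stress-induced C/EBP factor, had a log2 fold change of 0.46 ± 0.15, Gadd45b, a stress sensor, 0.24 ± 0.095, and the growth regulator Myc -0.31 ± 0.12 (SE; edgeR unadjusted p = 0.0125, 0.0309 and 0.029, adjusted p = 1 for each). The atypical HSP70 gene Hspa12a had -0.26 ± 0.14, the constitutive chaperone gene Hspa8 -0.064 ± 0.064 and Fkbp4, a cofactor of HSP90, 0.086 ± 0.072 (SE). Among kinase feedback genes, Dusp14 had -0.15 ± 0.11 and Spry4 -0.22 ± 0.19. Trib3 of the unfolded protein response had -0.24 ± 0.19 (SE). The other genes with the smallest p in their lists were Batf3, an AP-1 partner (-0.35 ± 0.22), the phosphatase gene Dusp5 (0.098 ± 0.094), the mitochondrial co-chaperone gene Hspe1 (-0.074 ± 0.065) and the HSP70 gene Hspa13 (0.094 ± 0.061; log2 fold change ± SE). Among upstream genes they were Crem (0.28 ± 0.19), the JNK gene Mapk9 (0.089 ± 0.062) and the kinase gene Rps6ka5 (0.13 ± 0.10), and in the unfolded protein response Dnajb9 (0.083 ± 0.083) and Atf4 (0.051 ± 0.068; log2 fold change ± SE). Leaving out 1 library moved several of these values by over 1.5 times: Crem was at 0.098 and Spry4 at -0.045 without knockout replicate 1, and Rps6ka5 was at 0.036, Trib3 at -0.062 and Dnajb9 at 0.014 without wild-type replicate 2. Hspa4, Hspa5, Hspa8 and Atf4 each stand in more than 1 of these lists.

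Nr4a1 had the largest fitted difference in these lists and did not pass. It encodes an orphan nuclear receptor that is an immediate early target of cAMP in steroid-producing cells. Its levels were 18.3, 25.4 and 19.1 CPM in wild type and 64.2, 53.9 and 20.99 CPM in knockout. As with Junb, knockout replicates 1 and 2 were high and knockout replicate 3 lay among the wild-type libraries. The log2 fold change was 1.15 ± 0.45 (SE, edgeR unadjusted p = 0.0528, adjusted p = 1) and 1.06 ± 0.45 with the replicate block (adjusted p = 0.771 in edgeR). Without knockout replicate 3 it was 1.498 (edgeR adjusted p = 0.18), and without knockout replicate 1 it was 0.84.

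Several listed genes shared the profile of Junb over the 6 libraries, a comparison chosen after its values were seen. Of 138 listed pathway genes tested, Fosl2 and Nr4a2 had the highest Pearson correlation with Junb (0.95 each), followed by Crem (0.91), Nr4a3 (0.90), Cebpd (0.85), the co-chaperone gene Dnaja1 (0.84), and Gadd45b and Nr4a1 (0.82 each). These are descriptions over 6 libraries that rest largely on knockout replicates 1 and 2. Of 18030 tested genes other than the 10, 13 exceeded 0.95. Among those 18030 genes Nr4a2 ranked 12th, Fosl2 15th, Crem 68th, Nr4a3 90th, Cebpd 210th and Nr4a1 293rd by this correlation. Their Spearman correlations with Junb ran from 0.486 (Nr4a3 and Nr4a1) to 0.886 (Crem). Fosl2, an AP-1 subunit, was at 41.3, 43.1 and 44.0 CPM in wild type and 68.6, 52.9 and 40.1 CPM in knockout. Nr4a2 was at 2.85, 3.12 and 4.36 against 9.33, 4.81 and 2.88 CPM. Nr4a3 was at 6.84, 4.13 and 6.11 against 10.8, 6.09 and 6.13 CPM. Both are relatives of Nr4a1, and in both knockout replicate 1 was the high library.

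Crem, the cAMP response modulator gene that also gives an inducible repressor, was at 14.8, 12.7 and 14.6 CPM in wild type and 21.1, 18.1 and 11.9 CPM in knockout. Cebpd was at 5.39, 5.45 and 6.01 against 8.42, 8.43 and 6.31 CPM, and its groups did not overlap (exact permutation p = 0.1, two-sided, the smallest possible). Star, which carries cholesterol into mitochondria of Leydig cells, was at 43.2, 37.5 and 24 CPM in wild type and 96.7, 187.7 and 22.98 CPM in knockout, with a correlation of 0.62 with Junb. It too was high in knockout replicates 1 and 2 and low in knockout replicate 3. That correlation ranked 1606th of 18030 genes, and Star was highest in knockout replicate 2, Junb in knockout replicate 1. Summed CPM of 8 Leydig genes, Star included, was 534.6 to 618.7 in wild type and 551.2, 977.7 and 440.4 in knockout replicates 1, 2 and 3. Of these 8 genes, 3 were higher and 5 lower in knockout (median log2 fold change -0.032). Their median log2 ratios were -0.094, 0.68 and -0.82 in pairs 1, 2 and 3. No gene of that list was at 0 in all libraries, and its part in these values was not tested. Within the group of 10, the correlation with Junb was 0.62 for Fosb, which was also highest in knockout replicate 1, and 0.33 for Atf3, whose 8.52 CPM there lay just above its wild-type maximum of 8.47 CPM. It was 0 for Ier2 and between -0.55 (Egr1) and -0.24 (Dusp1) for the other 6, all over 6 libraries.

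**Figure D5:**
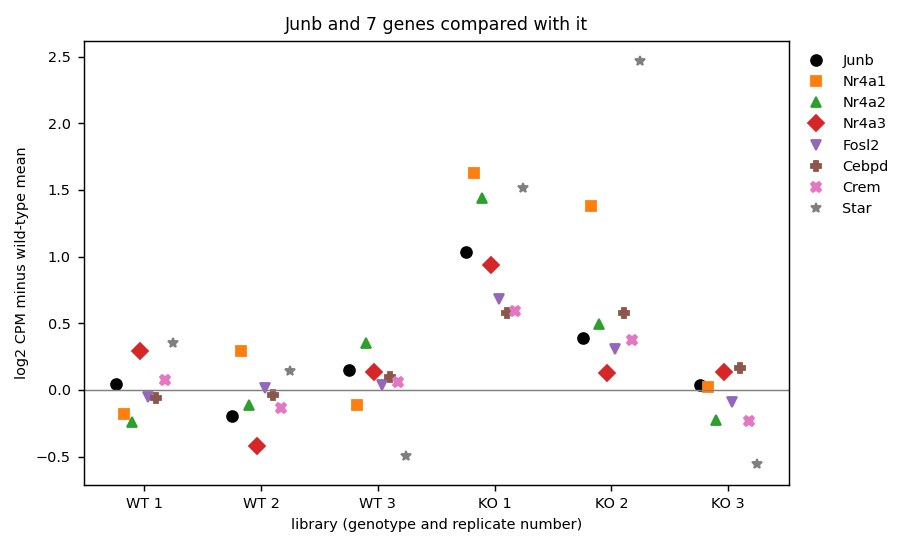
Log2 CPM of Junb and 7 genes in each library, relative to the mean of the wild-type libraries (WT, wild type; KO, knockout; numbers are replicates). Junb, Nr4a1, Fosl2, Cebpd, Crem and Star are above 0.3 in knockout replicates 1 and 2 and below 0.2 in knockout replicate 3.

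The genes whose profile was most like the mean of the 8 immediate early genes were Gm10036, Gm2058, Gm14753, Rpl39-ps and Ktn1, with Pearson correlations of 0.983 to 0.990 over the 6 libraries; 39 of 18030 genes exceeded 0.95. Of these, Ktn1, a gene for a kinesin-binding membrane protein, ran from 94.1 CPM in wild-type replicate 1 to 99.3 to 103.0 CPM in the other 5. Among those most like the heat shock pair were Zdhhc14, Slc35a4, Ugdh and Rhoa (0.990 to 0.993, with 106 genes over 0.95). Slc35a4 ran from 46.1 to 56.3 CPM and the small GTPase gene Rhoa from 235.5 to 262.2 CPM. These likenesses are descriptions over 6 libraries. By Spearman's rank, between 345 (Ktn1) and 2291 (Rpl39-ps) genes were at least as like the first profile as these 5, and 63 genes were at least as like the second as each of the 4.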

How the data were processed

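Testis RNA libraries were made with a directional kit. The table that the authors deposited holds raw counts of reads per gene, with each gene's exon length. The submitters' processing notes name GSNAP, featureCounts 1.6.0, bcl2fastq 2.19.1 and the mm10 build. How strand and multiply matched reads were treated is not given in the sources used here. Of 49763 rows, 92 spike-in rows (1 count) were left out. Symbols came from GENCODE M21 and, for 4 older symbols in the lists, RefSeq synonyms. Samples were grouped and numbered by their titles. The test was edgeR 4.0.16 under R 4.3.3 (TMM scaling, filterByExpr, robust quasi-likelihood F test, two-sided), Benjamini-Hochberg adjustment over all tested genes and a threshold of 0.05. SE and 95% intervals derive from the F statistic. It was checked on simulated counts. Same-numbered libraries deviated together (correlations 0.42, 0.26 and 0.28 of deviations from group means, each over 0.1), so the numbers were taken to pair them, as a hint from these data. DESeq2 1.42.0, limma 3.58.1 (voom), other scalings and filters, and fits without each library were alternatives; fits without a pair were added after the data were seen. The 10 genes and all lists were chosen with earlier results of these data known. Named genes were the 10, the 3 of each pathway list with the smallest p, the 5 most like each group, the 2 most abundant markers of each cell list and Ankrd31; Nr4a2, Nr4a3, Star, Prdx2, Junos, Hsf1, Hsf2, Dnaja1 and Dnajb1 were named after their values were seen. One gene that this rule names is not reported here. For the marker lists, summed CPM is given for those beside a result.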

Additional observations from a re-analysis of the deposited data

How the results depend on the processing

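In each fit run, 0 of the 10 genes were called (0 of 9 with a CPM minimum of 1 in 3 libraries, where Fosb was not tested). The count over all genes, 0 in the edgeR fit without a block, was 8 with the replicate block, 1 with no filter on low counts, 2 in DESeq2, 63 without pair 1 and 57 without pair 2 (both with the block), and 0 without each single library. The block changed no call of the 10 genes. Over all alternatives Jun (-0.31 to -0.060), Hspa1a (-0.24 to -0.030) and Hspa1b (-0.087, as the sum of both genes, to -0.0092) stayed lower and Junb (0.22 to 0.81) higher. The other 6 changed sign in 1 to 4 alternatives each, as Fos did without knockout replicate 2 (-0.15) and Egr1 without knockout replicate 3 (-0.076). Ankrd31 was called with the block, in DESeq2 (adjusted p = 0.00299), without pair 1 (edgeR adjusted p = 0.00435) and without pair 2 (4.24e-08), and not in the other fits. Hspa12a passed without pair 2 (-0.45, edgeR adjusted p = 0.00804; the cause was not tested) and in no other fit, where its range was -0.41 to -0.13. Fosb had 11 to 29 reads.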
